A study of Arabidopsis thaliana with 18 samples.

Results

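A set of 192 probe sets, of 22746 on the array that are no control, had lower levels in stage 13 than in stage 12 flowers of the mutants *arf6-2 arf8-3* and also *myb21-5 myb24-5*, and of wild type. The members were chosen from the measured values. The fall of a gene is its stage 13 mean minus its stage 12 mean on the log2 scale. A member had a fall of -0.7 or beyond in *arf6-2 arf8-3* and in *myb21-5 myb24-5*, and a fall of -1 or beyond in wild type, where every stage 13 array also had to lie below every stage 12 array. The wild-type part was met by 462 probe sets, of which 37 missed only the *arf6-2 arf8-3* part, 40 only the *myb21-5 myb24-5* part and 193 both. The falls are therefore given as a description, with no test. Of the members, 110 were named by 1 gene through the array's platform annotation and 4 through gene tables of the study, 4 match several genes, and 74 are unnamed here.

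The values came from Affymetrix ATH1 arrays of *Arabidopsis thaliana* flowers, with 3 biological replicates, lettered A, B and C, in each of 6 groups, hence 18 arrays. The groups were the double mutants *arf6-2 arf8-3* and then *myb21-5 myb24-5*, and wild type, each at stage 13, the youngest open flowers, and at stage 12, the oldest closed buds. All plants were of the Columbia ecotype and were grown in 16 h days, and flowers were taken in the morning. *ARF6* and *ARF8* encode auxin response factors, *MYB21* and *MYB24* encode transcription factors of late flower development, *myb21-5* carries a stop codon and *myb24-5* a T-DNA insertion. Mutant flowers do not open, so the stage 13 samples of both mutants are closed flowers picked by position to match open wild-type flowers. The name "genes falling at opening" thus holds literally for wild type only. Whole flowers were used, so a lower level can reflect fewer cells of a type or less RNA per cell, and these cannot be told apart. An array gives no read depth, and the number of arrays limits the precision.

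In the anther, the tapetum feeds the developing pollen, deposits lipids and proteins on its surface, and then degenerates before the anther opens. Maturing pollen grains dehydrate, and their late transcripts include late embryogenesis abundant (LEA) proteins, which protect cells during drying, oleosins and caleosins of lipid droplets, and enzymes that act on pectin in the cell wall. Flowers open around the time of pollen release.

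The targeted genes were measured first. *ARF6* had log2 values of 4.73 to 5.27 on the 6 *arf6-2 arf8-3* arrays, against 9.14 to 9.77 on the 6 wild-type arrays, and the groups did not overlap. *MYB21* had 10.62 to 11.95 in *myb21-5 myb24-5*, where the alleles need not remove the transcript, on 5 of 6 arrays. Replicate A of stage 13 in that genotype, by its label, had 4.75 for *ARF6*, 5.68 for *ARF8*, 5.05 for *MYB21* and 3.88 for *MYB24*, values of the *arf6-2 arf8-3* range. Its log2 differences from *arf6-2 arf8-3* stage 13 replicate A had a standard deviation of 0.121, the smallest among all pairs of arrays, where replicates of the same group otherwise had 0.236 or more. That array, called the set-aside array here, entered neither the rule nor the fits, and its values are given apart.

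Levels of the members shifted together from array to array, most of all in buds. The median over the members was 7.38, 7.34 and 6.0 in *arf6-2 arf8-3* (replicates A, B and C), 6.62 and 6.81 in *myb21-5 myb24-5* (B and C), and 6.0, 5.87 and 6.09 in wild type at stage 13. At stage 12 it was 9.16, 8.93 and 7.74 in *arf6-2 arf8-3*, 10.02, 8.91 and 8.33 in *myb21-5 myb24-5*, and 9.12, 7.78 and 8.65 in wild type. The lowest stage 12 arrays were thus replicate C in both mutants and replicate B in wild type, and replicate C stood lowest at stage 13 in *arf6-2 arf8-3*. The median over all probe sets stayed between 7.71 and 7.78 on every array. On the set-aside array the member median was 7.24.

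**Figure D1:**
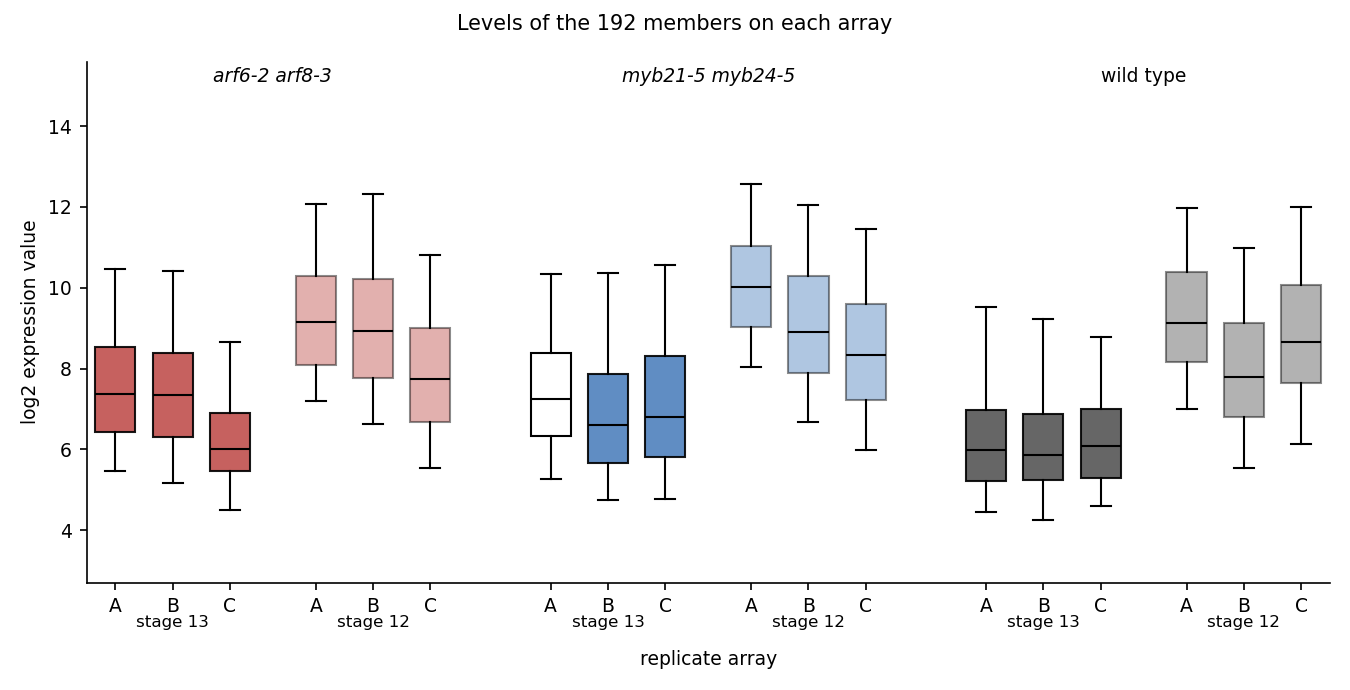
Log2 expression values (vertical axis) of the 192 members on each of the 18 replicate arrays (horizontal axis), by genotype and stage. Boxes span the quartiles with the median as a line, whiskers the 5th to 95th percentile, and the open box is the set-aside array. Member medians lie between 5.87 and 7.38 on stage 13 arrays and between 7.74 and 10.02 on stage 12 arrays.

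This shift was shared by nearly all members. In *arf6-2 arf8-3* stage 13 flowers, 180 of 192 members had their lowest value on replicate C, against 31.4% of all probe sets. At stage 12, 174 members were lowest on replicate C in *arf6-2 arf8-3* and 161 on replicate C in *myb21-5 myb24-5*, whereas in wild type 179 were lowest on replicate B. Only in wild type at stage 13, of the groups with 3 arrays, was no such array found, with 54, 78 and 60 members lowest on A, B and C. The median standard deviation of a member among replicates was 0.65 in *arf6-2 arf8-3* and 0.23 in wild type at stage 13, and 0.73 in *arf6-2 arf8-3*, 0.90 in *myb21-5 myb24-5* and 0.61 in wild type at stage 12. Over all probe sets it lay between 0.10 and 0.16. The members are hence not independent of each other within an array.

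The median fall was -1.46 in *arf6-2 arf8-3*, -1.96 in *myb21-5 myb24-5* and -2.09 in wild type, that is, values at stage 13 lower by 2.76-fold in *arf6-2 arf8-3*, 3.88-fold in *myb21-5 myb24-5* and 4.26-fold in wild type. Falls reached -4.32 in *arf6-2 arf8-3*, -6.53 in *myb21-5 myb24-5* and -6.83 in wild type. The rule asked for a larger fall in wild type than in the mutants, so smaller mutant falls are partly built in. Every stage 13 array lay below every stage 12 array for 134 members in *arf6-2 arf8-3*, where this held for 10.9% of all probe sets, and for 189 members in *myb21-5 myb24-5*, where it held for 17.7%. In wild type the rule asked for it, so it held for all 192 members, against 12.1% of all probe sets. In the mutants the rule asked for a fall of the mean on these same arrays. Shares above those of all probe sets are thus largely built in there too, and are no test of the mutant falls. Without *arf6-2 arf8-3* stage 12 replicate C, 187 members did not overlap between the stages in that genotype, against 21.1% of all probe sets with the same arrays. Without *arf6-2 arf8-3* stage 13 replicate C, the median fall there was -0.94. With the set-aside array included, the median fall in *myb21-5 myb24-5* was -1.75. On that array 187 members were lower than on all 3 *myb21-5 myb24-5* stage 12 arrays, against 31.7% of all probe sets. Its targeted genes had values of the *arf6-2 arf8-3* range, so these values are no check of the fall in *myb21-5 myb24-5*.

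Means under 6 were found for 40 members in *arf6-2 arf8-3*, 57 in *myb21-5 myb24-5* and 100 in wild type at stage 13, against 2 members in *arf6-2 arf8-3*, 0 in *myb21-5 myb24-5* and 6 in wild type at stage 12. At stage 13 these were 20.8% of the members in *arf6-2 arf8-3*, where 29.0% of all probe sets were under 6, 29.7% in *myb21-5 myb24-5*, against 27.9% of all, and 52.1% in wild type, against 28.4% of all. At stage 12, 28.3% of all probe sets were under 6 in *arf6-2 arf8-3*, 28.5% in *myb21-5 myb24-5* and 28.3% in wild type. Stage 12 means over 10 were found for 36 members in *arf6-2 arf8-3* (18.8%, against 12.7% of all probe sets). There were 58 in *myb21-5 myb24-5* (30.2%, against 12.7%) and 43 in wild type (22.4%, against 13.0%). The rule asks for a fall, which needs a bud level above the floor, so few low bud levels are partly built in.

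**Figure D2:**
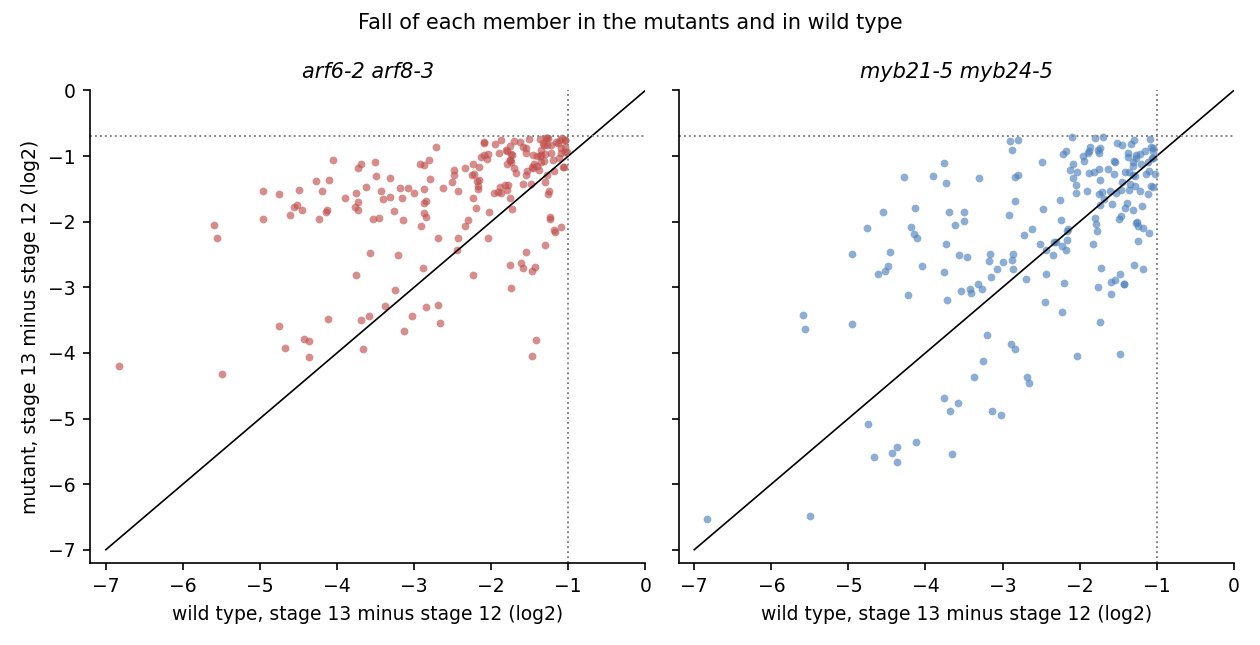
Fall of each of the 192 members (stage 13 minus stage 12, log2) in a mutant (vertical axis) against wild type (horizontal axis), with *arf6-2 arf8-3* on the left and *myb21-5 myb24-5* on the right. Points above the solid line fell less in the mutant, as 161 did in *arf6-2 arf8-3* and 117 in *myb21-5 myb24-5*, and dotted lines mark the thresholds of -0.7 and -1.

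The largest average fall of a named member was that of *AT1G66850*, of the lipid-transfer protein family. At stage 13 it had 8.84, 7.83 and 5.23 in *arf6-2 arf8-3*, 6.44 and 5.22 in *myb21-5 myb24-5*, and 4.83, 5.38 and 5.61 in wild type. At stage 12 it had 12.38, 13.03 and 9.44 in *arf6-2 arf8-3*, 12.99, 12.74 and 11.23 in *myb21-5 myb24-5*, and 11.11, 9.78 and 11.42 in wild type. The stages did not overlap in any genotype, and the stage 13 level was 20.0-fold lower in *arf6-2 arf8-3*, 89.8-fold in *myb21-5 myb24-5* and 45.1-fold in wild type. The unnamed probe set 250610_at fell still further in wild type (-6.83), with -4.20 in *arf6-2 arf8-3* and -6.53 in *myb21-5 myb24-5*.

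The lipid droplet genes *AT1G23240*, a caleosin, and *AT2G25890*, an oleosin, were also members. *AT1G23240* had 8.08, 7.74 and 5.41 in *arf6-2 arf8-3*, 5.29 and 5.80 in *myb21-5 myb24-5* and 5.61, 5.27 and 5.01 in wild type at stage 13. Its stage 12 values were 11.44, 11.49 and 9.69 in *arf6-2 arf8-3*, 12.02, 11.60 and 9.59 in *myb21-5 myb24-5*, and 10.47, 8.26 and 10.46 in wild type. Again no stage 13 array reached a stage 12 array of its genotype, and the falls were -3.79 in *arf6-2 arf8-3*, -5.53 in *myb21-5 myb24-5* and -4.43 in wild type. The oleosin had falls of -1.64 in *arf6-2 arf8-3*, -2.49 in *myb21-5 myb24-5* and -3.16 in wild type. A further oleosin, *AT3G18570*, had falls of -0.84 in *arf6-2 arf8-3*, -1.20 in *myb21-5 myb24-5* and -1.75 in wild type.

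Genes of the pollen surface were among the members. *AT5G61605* and *AT2G29790* encode small cysteine-rich pollen coat proteins of the PCP-B class, which act when pollen meets the stigma. *AT5G61605* had 6.73, 6.24 and 5.04 in *arf6-2 arf8-3*, 5.06 and 5.30 in *myb21-5 myb24-5*, and 5.35, 5.36 and 5.46 in wild type at stage 13. Its stage 12 values were 10.16, 10.82 and 7.36 in *arf6-2 arf8-3*, 11.20, 10.66 and 8.53 in *myb21-5 myb24-5*, and 9.11, 6.98 and 9.15 in wild type. Stages did not overlap in any genotype, and at stage 13 *arf6-2 arf8-3* replicates A and B lay above wild type while the other mutant arrays lay below it. *ATA27*, an anther-expressed beta-glucosidase gene, had 7.02, 5.06 and 4.51 in *arf6-2 arf8-3*, 4.80 and 4.62 in *myb21-5 myb24-5*, and 4.22, 4.39 and 4.63 in wild type at stage 13. Its stage 12 values ranged widely, with 10.87, 12.38 and 5.17 in *arf6-2 arf8-3*, 11.67, 10.72 and 8.36 in *myb21-5 myb24-5*, and 8.71, 6.85 and 8.65 in wild type. In *arf6-2 arf8-3* the stages overlapped, as stage 12 replicate C lay below stage 13 replicate A. *AT1G33430*, a galactosyltransferase gene of pollen wall formation, had falls of -2.75 in *arf6-2 arf8-3*, -2.80 in *myb21-5 myb24-5* and -1.47 in wild type.

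Members of the LEA families numbered 10, a group put together after the values were seen. Their median fall was -1.67 in *arf6-2 arf8-3*, -1.95 in *myb21-5 myb24-5* and -3.31 in wild type. In both mutants 8 of the 10 fell less than in wild type, as did 114 of all 192 members. The dehydrin gene *AT2G21490* had 6.56, 6.13 and 4.92 in *arf6-2 arf8-3*, 4.61 and 4.98 in *myb21-5 myb24-5*, and 4.45, 4.56 and 4.86 in wild type at stage 13. At stage 12 it had 9.56, 8.89 and 7.62 in *arf6-2 arf8-3*, 10.94, 10.04 and 7.46 in *myb21-5 myb24-5*, and 9.36, 6.35 and 9.43 in wild type. The stages were apart in every genotype. *AT5G38760* kept the highest wild-type stage 13 mean of the LEA genes, with 10.52, 10.42 and 7.06 in *arf6-2 arf8-3*, 9.99 and 11.08 in *myb21-5 myb24-5*, and 10.59, 9.80 and 9.54 in wild type. *AT2G03740* was the 1 that fell more in both mutants, with -2.16 in *arf6-2 arf8-3*, -2.73 in *myb21-5 myb24-5* and -1.18 in wild type.

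Enzymes of the cell wall formed further groups, likewise put together with the values known. The 5 pectin genes, 2 of them pectate lyases, had median falls of -1.82 in *arf6-2 arf8-3*, -3.20 in *myb21-5 myb24-5* and -3.73 in wild type. The pectate lyase gene *AT5G55720* had the largest wild-type fall of these, with 5.14, 5.03 and 5.35 at stage 13 against 10.31, 10.08 and 10.01 at stage 12 in wild type. At stage 13 it had 8.18, 7.76 and 6.54 in *arf6-2 arf8-3* and 7.24 and 7.16 in *myb21-5 myb24-5*, all above the wild-type arrays. Against wild type that was 2.32 higher in *arf6-2 arf8-3* (SE 0.45, limma adjusted p = 0.00174) and 2.02 in *myb21-5 myb24-5* (SE 0.51, adjusted p = 0.0175). Lipases of the GDSL family, which cleave ester bonds, gave 9 members. In both mutants 8 of these fell less than in wild type, as did 114 of all 192 members. Their median falls were -1.36 in *arf6-2 arf8-3*, -2.0 in *myb21-5 myb24-5* and -2.16 in wild type.

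Transport was represented by 6 members, calcium binding by 5 and myosins by 2. *AtVEX1*, which encodes the sugar transporter SWEET5 of the pollen vegetative cell, had 9.96, 10.06 and 6.56 in *arf6-2 arf8-3*, 7.87 and 7.68 in *myb21-5 myb24-5*, and 6.14, 5.81 and 6.07 in wild type at stage 13. Its stage 12 values were 11.38, 10.46 and 9.98 in *arf6-2 arf8-3*, 11.39, 10.29 and 9.88 in *myb21-5 myb24-5*, and 11.03, 10.16 and 10.41 in wild type. Buds of the 3 genotypes overlapped, whereas at stage 13 all mutant arrays lay above all wild-type arrays. The stage 13 difference from wild type did not pass the test in *myb21-5 myb24-5* (1.77, SE 0.79, limma adjusted p = 0.199), and that in *arf6-2 arf8-3* is given below. The myosin genes *XIE* and *XIC*, whose products move organelles in pollen tubes, had falls of -1.26 and -0.87 in *arf6-2 arf8-3*, -1.65 and -1.27 in *myb21-5 myb24-5*, and -1.68 and -1.55 in wild type. The pollen calcium-binding protein gene *PC1* had 8.79, 8.65 and 5.23 in *arf6-2 arf8-3*, 7.15 and 8.74 in *myb21-5 myb24-5*, and 7.88, 7.13 and 6.15 in wild type at stage 13. In buds it had 10.49, 9.51 and 8.52 in *arf6-2 arf8-3*, 11.55, 9.98 and 9.94 in *myb21-5 myb24-5*, and 11.18, 9.90 and 10.47 in wild type. Within each stage its genotypes overlapped, and *arf6-2 arf8-3* replicate C was the lowest at either stage.

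**Figure D3:**
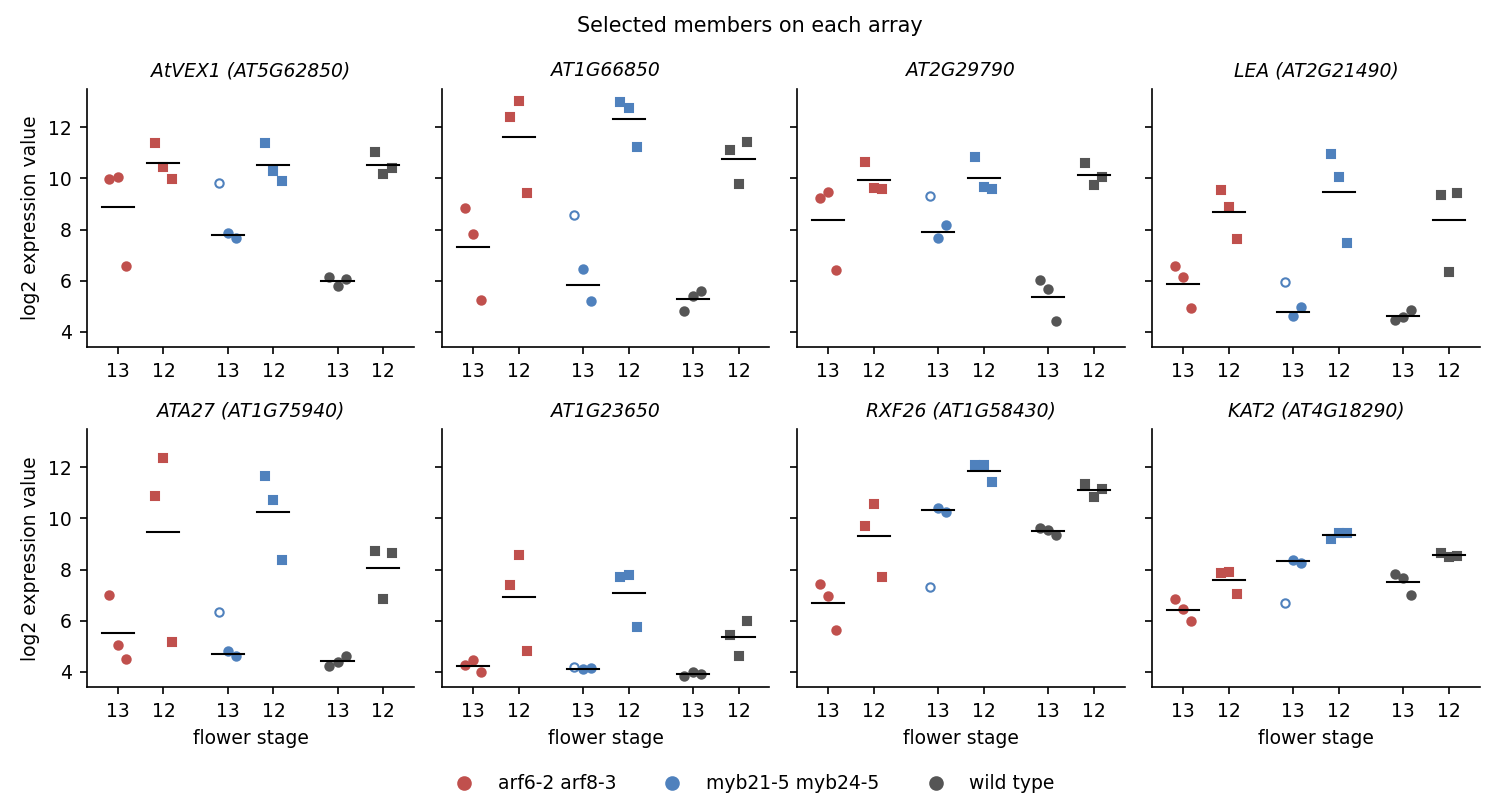
Log2 expression values (vertical axis) of 8 members on each array at flower stages 13 and 12 (horizontal axis), with circles for stage 13, squares for stage 12, lines for group means, and an open circle for the set-aside array. *AtVEX1* lies between 6.56 and 10.06 in *arf6-2 arf8-3* and between 5.81 and 6.14 in wild type at stage 13, while *AT1G23650* lies between 3.86 and 4.46 in all genotypes.

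The order of the falls divided the members. In both mutants 114 members fell less than in wild type, in both 28 fell more, 47 fell more in *myb21-5 myb24-5* only, and 3 fell more in *arf6-2 arf8-3* only. Members that fell less in both mutants had median differences from wild type of 0.82 in *arf6-2 arf8-3* and 0.91 in *myb21-5 myb24-5* at stage 13, and of -0.33 in *arf6-2 arf8-3* and 0.19 in *myb21-5 myb24-5* at stage 12. For the 28 members that fell more in both mutants, the median differences were 0.41 in *arf6-2 arf8-3* and 0.19 in *myb21-5 myb24-5* at stage 13, and 1.16 in *arf6-2 arf8-3* and 1.39 in *myb21-5 myb24-5* at stage 12. The classes were made from the falls, and a larger fall must come from a higher start or a lower end, so these medians are a description. The laxer threshold for the mutants also favours members that fell less in both. Over these 28 members the stage 12 medians were 9.01, 9.53 and 6.44 in *arf6-2 arf8-3*, 9.73, 8.98 and 7.15 in *myb21-5 myb24-5*, and 7.87, 6.36 and 7.62 in wild type. Replicate C of each mutant lay within the wild-type range, so the difference rested on replicates A and B.

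**Figure D4:**
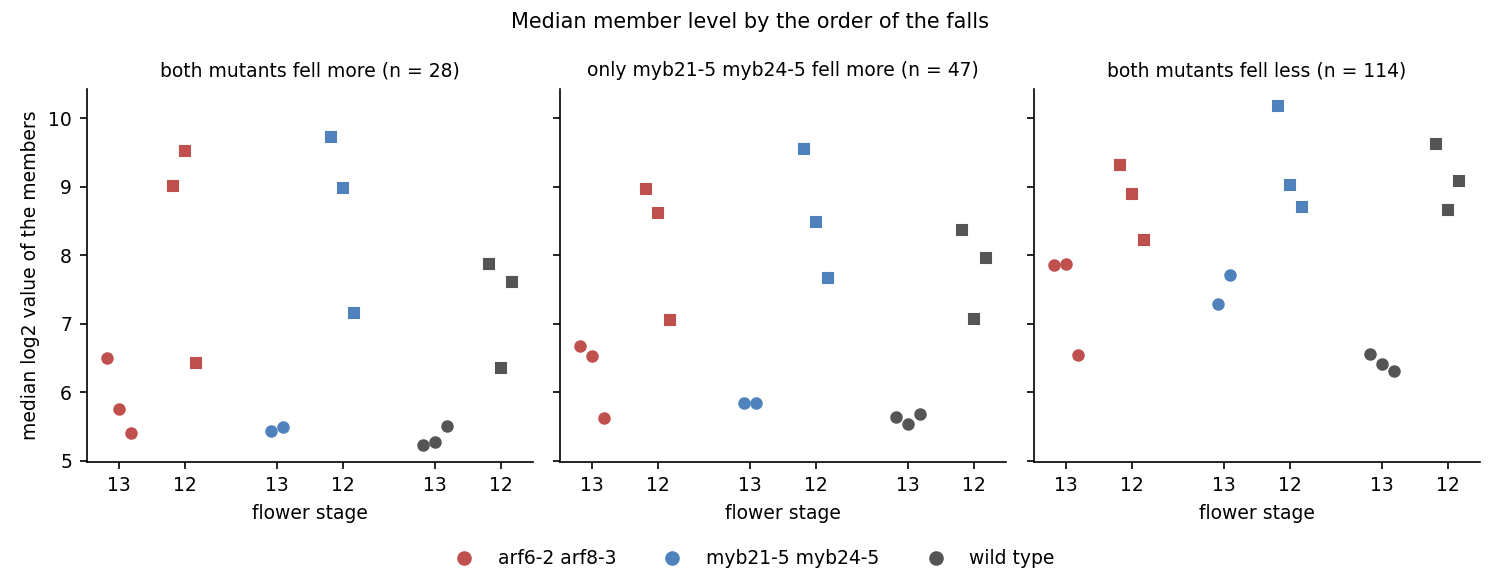
Median log2 value over the members of a class (vertical axis) on each array at flower stages 13 and 12 (horizontal axis), for members that fell more in both mutants (n = 28), more in *myb21-5 myb24-5* only (n = 47) and less in both mutants (n = 114). In the left panel the mutants stand apart from wild type at stage 12 on replicates A and B, and in the right panel the mutants lie above wild type at stage 13, except *arf6-2 arf8-3* replicate C at 6.54.

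Among the 28 members were 5 of the 6 genes of the DUF220 family, a plant protein family of unknown function, together with *ATA27*, *AT5G61605*, *AT1G33430* and the papain-like cysteine protease gene *AT1G06260*. The DUF220 genes had median falls of -2.68 in *arf6-2 arf8-3*, -2.97 in *myb21-5 myb24-5* and -1.51 in wild type. *AT1G23650* had 4.29, 4.46 and 3.98 in *arf6-2 arf8-3*, 4.10 and 4.16 in *myb21-5 myb24-5*, and 3.86, 3.98 and 3.93 in wild type at stage 13. At stage 12 it had 7.41, 8.57 and 4.82 in *arf6-2 arf8-3*, 7.72, 7.78 and 5.74 in *myb21-5 myb24-5*, and 5.46, 4.61 and 5.98 in wild type. Replicates A and B of both mutants thus lay above all wild-type buds, and replicate C did not. *AT1G06260* had 9.77, 11.53 and 6.33 in *arf6-2 arf8-3*, 11.07, 9.70 and 7.20 in *myb21-5 myb24-5*, and 8.44, 6.33 and 7.79 in wild type at stage 12. *AT1G68875*, of no known role here, had the largest mutant fall relative to wild type among named members, with -3.80 in *arf6-2 arf8-3*, -2.94 in *myb21-5 myb24-5* and -1.42 in wild type.

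The 6 DUF220 genes lie within 15 consecutive protein-coding genes of chromosome 1 in the RefSeq gene table (assembly TAIR10.1). Of the 112 members with a place in that table, 23 (20.5%) had another member among the 10 next genes on either side, in 9 clusters. No such share for other genes is given here, so whether the members cluster more than other genes cannot be said. A further cluster on chromosome 3 held *AT3G21960*, *AT3G21970* and *AT3G22050*, secreted proteins with DUF26 domains, and another on that chromosome held *AT3G28780* and *AT3G28840*, of the DUF1216 family. Such genes are similar in sequence, and how far their probes bind each other's transcripts was not tested.

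Lists of late pollen genes and of tapetum genes, compiled by function, were set beside the members. Of 26 late pollen genes 11 had a named probe set, and 1 of them, *AtVEX1*, was a member. In wild type 6 of the 11 were called lower at stage 13 (limma, adjusted p under 0.05 and at least 2-fold), against 1.76% of all probe sets, and 0 higher, against 1.95%. Of these 6, *AtVEX1* is a member and was chosen by its wild-type fall, so its call is no test, and 5 of the 10 others were called lower. In *arf6-2 arf8-3* 0 were called lower, against 0.378%, and 0 higher, against 0.453%. In *myb21-5 myb24-5* 0 were called lower, against 0.462%, and 2 higher, against 1.63%. At an unadjusted p under 0.05, 3 were lower and 2 higher in *arf6-2 arf8-3*, 1 lower and 3 higher in *myb21-5 myb24-5*, and 8 lower and 0 higher in wild type. Without wild-type stage 12 replicate A or stage 13 replicate C the wild-type count of lower genes was 3. *AGL66*, which encodes a MADS-domain factor of pollen maturation, had 7.32, 7.13 and 6.33 at stage 13 against 9.16, 8.91 and 9.05 at stage 12 in wild type (-2.11, SE 0.31, limma adjusted p = 0.000505). Its stage 13 minus stage 12 values were -0.22 in *arf6-2 arf8-3* (adjusted p = 0.824) and 0.26 in *myb21-5 myb24-5* (adjusted p = 0.731), neither past the test. In *arf6-2 arf8-3* buds *AGL66* was already lower than in wild-type buds (-1.28, SE 0.31, limma adjusted p = 0.0121). In *myb21-5 myb24-5* buds the difference did not pass the test (-0.76, SE 0.31, adjusted p = 0.255). Of the 11 genes, 3 were called lower than in wild type in *arf6-2 arf8-3* buds, against 3.03% of all probe sets, and 0 higher. In *myb21-5 myb24-5* buds 0 were called in either direction. The late pollen gene *BCP1* of the list was called higher at stage 13 in *myb21-5 myb24-5* (1.98, SE 0.42, limma adjusted p = 0.0186).

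Of 29 tapetum and pollen coat genes, 6 had a named probe set, and 0 were members. The tapetum markers *AMS* and *A9* had their highest values in mutant buds. *AMS*, a regulator of tapetum development, had 6.25, 7.05 and 4.46 in *arf6-2 arf8-3*, 6.18, 5.58 and 4.34 in *myb21-5 myb24-5*, and 4.53, 4.21 and 4.70 in wild type at stage 12. *AT5G07230* (*A9*), a classical tapetum marker, had 7.84, 9.38 and 5.06 in *arf6-2 arf8-3*, 6.51, 7.23 and 4.84 in *myb21-5 myb24-5*, and 4.50, 4.64 and 4.92 in wild type. For both genes replicates A and B of the mutants lay above all wild-type buds, as for *AT1G23650*, and replicate C lay within the wild-type range or close to it. Against wild-type buds *A9* (*AT5G07230*) was called higher in *arf6-2 arf8-3* (2.74, SE 0.80, limma adjusted p = 0.0346), and *AMS* did not pass the test (1.44, SE 0.51, adjusted p = 0.087). In *myb21-5 myb24-5* buds neither passed it, with 1.51 for *A9* (SE 0.80, limma adjusted p = 0.44) and 0.89 for *AMS* (SE 0.51, adjusted p = 0.506). The SE pools the spread of all groups. The standard deviation of *A9* was 2.19 among *arf6-2 arf8-3* buds and 0.21 among wild-type buds. The adjusted p of *A9* thus does not measure the spread among these mutant buds. In *arf6-2 arf8-3* buds *AT1G75880* of the list was called lower than in wild type (-1.20, SE 0.31, limma adjusted p = 0.0167), so that 1 of the 6 was called in each direction. Over all probe sets 3.03% were called lower there and 1.54% higher. Neither *AMS* nor *A9* was called between the stages (*AMS* limma adjusted p = 0.0947 in *arf6-2 arf8-3*, 0.325 in *myb21-5 myb24-5* and 0.757 in wild type). Over the 6 tapetum genes the array medians ranged from 6.73 to 9.49 in *arf6-2 arf8-3*, from 7.28 to 8.96 in *myb21-5 myb24-5* and from 6.51 to 7.04 in wild type at stage 12, and their part in the members' falls was not tested. At stage 13, 1 of the 6 was called lower than at stage 12 in *arf6-2 arf8-3* (*AT1G75890*), against 0.378% of all probe sets. In *myb21-5 myb24-5* 0 were called lower, against 0.462%, and in wild type 2 (*AT1G75880* and *AT1G75890*), against 1.76%. These 2 genes encode extracellular GDSL lipases of the anther. Without wild-type stage 12 replicate A or C, or without stage 13 replicate C, the wild-type count was 1.

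Each mutant was then compared with wild type at the same stage. These contrasts share their arrays with the rule, which favours low wild-type values at stage 13 and asks less of the mutants, so a higher mutant level there is partly built in. In *arf6-2 arf8-3* stage 13 flowers 29 of 192 members were called higher than in wild type, against 2.75% of all probe sets, and 3 were called lower, against 3.72%. In *myb21-5 myb24-5* 22 members were called higher, against 2%, and 0 lower, against 2.49%, with 1 lower at an unadjusted p under 0.05. The median difference over the members was 0.65 in *arf6-2 arf8-3* and 0.53 in *myb21-5 myb24-5*, against medians over all probe sets of 0.00 in *arf6-2 arf8-3* and 0.03 in *myb21-5 myb24-5*. With the replicate letter as a block, 46 members were called higher in *arf6-2 arf8-3*. Without *arf6-2 arf8-3* stage 13 replicate C the count was 55, and without replicate A or without replicate B it was 16. For *myb21-5 myb24-5* it was 12 without replicate B and 11 without replicate C.

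**Figure D5:**
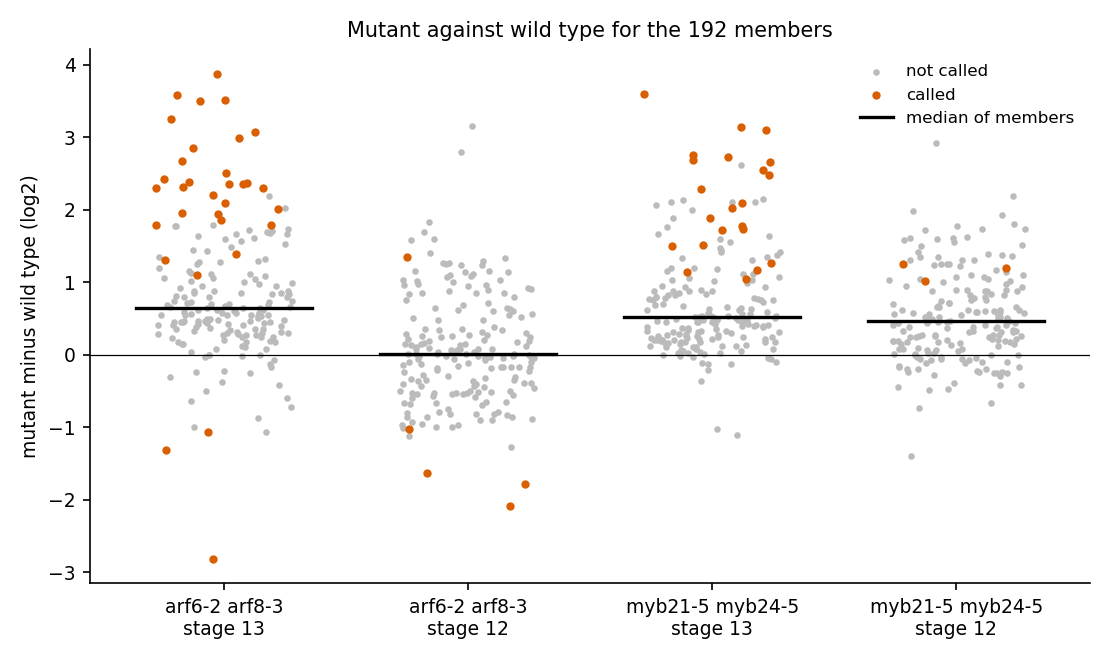
Difference between mutant and wild type (vertical axis, log2) for each of the 192 members in the 4 comparisons (horizontal axis), with called members in colour and the median of the members as a line. Most members lie above 0 at stage 13, 169 in *arf6-2 arf8-3* and 180 in *myb21-5 myb24-5*, and at stage 12 the median was 0.01 in *arf6-2 arf8-3* and 0.46 in *myb21-5 myb24-5*.

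In both mutants 12 members were called higher at stage 13, which is 41.4% of those in *arf6-2 arf8-3* and 54.5% of those in *myb21-5 myb24-5*, the comparisons sharing their wild-type arrays. Over all probe sets 0.703% were called higher in both, which is 25.6% of those called higher in *arf6-2 arf8-3* and 35.2% of those in *myb21-5 myb24-5*. *AT2G21220*, which encodes a small auxin-up RNA (SAUR) protein, had 8.65, 8.84 and 7.63 in *arf6-2 arf8-3*, 8.66 and 9.0 in *myb21-5 myb24-5*, and 5.99, 6.35 and 6.16 in wild type. All mutant arrays lay above all wild-type arrays, by 2.21 in *arf6-2 arf8-3* (SE 0.30, limma adjusted p = 7.44e-05) and 2.66 in *myb21-5 myb24-5* (SE 0.33, adjusted p = 7e-05). The set-aside array had 8.47 for this gene.

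*AT2G20870*, annotated as a cell wall protein, had the highest wild-type stage 12 mean of the named members (13.35 ± 0.22, SD, n = 3 arrays). At stage 13 it had 12.20, 11.96 and 9.73 in *arf6-2 arf8-3*, 12.36 and 12.04 in *myb21-5 myb24-5*, and 9.56, 9.51 and 9.27 in wild type. Both *myb21-5 myb24-5* arrays stayed far above wild type, and *arf6-2 arf8-3* replicate C came near it. The differences were 1.85 in *arf6-2 arf8-3* (SE 0.46, limma adjusted p = 0.00949) and 2.75 in *myb21-5 myb24-5* (SE 0.51, adjusted p = 0.00238).

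The PCP-B gene *AT2G29790* had 9.22, 9.46 and 6.43 in *arf6-2 arf8-3*, 7.68 and 8.16 in *myb21-5 myb24-5*, and 6.02, 5.68 and 4.42 in wild type at stage 13. Mutant and wild-type arrays did not overlap. It was 2.99 higher in *arf6-2 arf8-3* (SE 0.66, limma adjusted p = 0.00436) and 2.55 higher in *myb21-5 myb24-5* (SE 0.74, adjusted p = 0.0399). Its stage 12 values were 10.63, 9.63 and 9.59 in *arf6-2 arf8-3*, 10.83, 9.65 and 9.57 in *myb21-5 myb24-5*, and 10.61, 9.72 and 10.05 in wild type, with overlap among all groups. *AT3G28840* of the DUF1216 family and *AT5G22430* of the Ole e 1 family, named after an olive pollen protein, were also called higher in both mutants at stage 13. *AT5G22430* had 11.39, 11.13 and 9.64 in *arf6-2 arf8-3*, 11.16 and 10.97 in *myb21-5 myb24-5*, and 8.67, 8.54 and 9.12 in wild type. The differences were 1.94 in *arf6-2 arf8-3* (SE 0.38, limma adjusted p = 0.00194) and 2.29 in *myb21-5 myb24-5* (SE 0.43, adjusted p = 0.00247).

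Of the named members called in *arf6-2 arf8-3*, the amino acid transporter gene *AT1G71680* differed most. It had 8.84, 9.06 and 6.23 in *arf6-2 arf8-3*, 6.76 and 6.59 in *myb21-5 myb24-5*, and 4.53, 4.74 and 5.10 in wild type, and the *arf6-2 arf8-3* difference was 3.25 (SE 0.63, limma adjusted p = 0.00156). The kinase family gene *AT2G16750* had 8.71, 9.17 and 5.85 in *arf6-2 arf8-3*, 6.91 and 6.76 in *myb21-5 myb24-5*, and 4.86, 4.81 and 4.84 in wild type, with a difference of 3.07 (SE 0.67, adjusted p = 0.0039). For *AtVEX1* it was 2.85 (SE 0.71, adjusted p = 0.00958). The unnamed probe set 261943_at had the largest called difference, 3.88 (SE 0.75, adjusted p = 0.00168). For these 3 named genes replicate C of the mutant was the array nearest to wild type. The GDSL lipase gene *AT5G33370*, with 12.17, 11.80 and 10.61 in *arf6-2 arf8-3*, 11.32 and 10.57 in *myb21-5 myb24-5*, and 9.47, 9.23 and 8.79 in wild type, was called in both mutants, by 2.36 in *arf6-2 arf8-3* (limma adjusted p = 0.000176) and 1.78 in *myb21-5 myb24-5* (adjusted p = 0.0076).

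*AT4G24140*, a gene of the BODYGUARD family of cuticle-related hydrolases, differed between the mutants at stage 13. It had 7.20, 7.09 and 6.74 in *arf6-2 arf8-3*, 9.39 and 9.32 in *myb21-5 myb24-5*, and 6.44, 6.58 and 6.99 in wild type. *myb21-5 myb24-5* lay apart from the other groups, 2.68 above wild type (SE 0.31, limma adjusted p = 3.99e-05). The direct difference of *arf6-2 arf8-3* minus *myb21-5 myb24-5* was -2.34 (SE 0.31, adjusted p = 0.000154). The set-aside array had 7.12. At stage 12 the gene was lower in *arf6-2 arf8-3*, with 8.41, 9.27 and 7.87 against 9.63, 9.15 and 9.85 in wild type (-1.03, SE 0.28, limma adjusted p = 0.0244). *CP1*, a papain-like cysteine protease gene, was called higher in *myb21-5 myb24-5* at stage 13, by 2.09 (SE 0.47, limma adjusted p = 0.00884), and the mutants differed by -1.30 without passing the test (SE 0.47, adjusted p = 0.0879).

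In buds few members were called. In *arf6-2 arf8-3* at stage 12, 4 of 192 members were called lower than in wild type, against 3.03% of all probe sets, and 1 higher, against 1.54%. In *myb21-5 myb24-5* 0 were called lower, against 1.05%, with 1 lower at an unadjusted p under 0.05, and 3 higher, against 0.382%. The median difference over the members was 0.01 in *arf6-2 arf8-3* and 0.46 in *myb21-5 myb24-5*, where 153 of 192 members had a positive difference. The 3 members called higher in *myb21-5 myb24-5* buds were *AT4G22753*, a sterol desaturase family gene, *AT1G32780*, an alcohol dehydrogenase-like gene, and *AT4G28160*. *AT4G22753* had 9.99, 9.75 and 9.13 in *myb21-5 myb24-5*, and 8.43, 8.09 and 8.61 in wild type, without overlap (1.25, SE 0.28, limma adjusted p = 0.0197). The thaumatin family gene *AT1G75050* was lower in *arf6-2 arf8-3* buds, with 6.67, 6.64 and 5.54 against 8.89, 6.91 and 7.96 in wild type (-1.63, SE 0.44, limma adjusted p = 0.022). Single arrays moved these counts. In *arf6-2 arf8-3* buds, 1 member was called lower and 14 higher without its replicate C, 7 lower and 0 higher without its replicate B, and 0 higher without its replicate A. Without wild-type replicate A 2 were lower there, without wild-type replicate B 0 were higher, and without wild-type replicate C 1 was lower and 3 were higher. In *myb21-5 myb24-5* buds, 1, 0 and 6 were called higher without its replicates A, B and C in turn, and 0 and 5 without wild-type replicates B and C.

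Of the named members, *RXF26* and *KAT2* alone were called lower in *arf6-2 arf8-3* at stage 13. *RXF26*, of the GDSL lipase family, had 7.45, 6.95 and 5.65 in *arf6-2 arf8-3*, 10.42 and 10.25 in *myb21-5 myb24-5*, and 9.62, 9.53 and 9.36 in wild type at stage 13. At stage 12 it had 9.71, 10.54 and 7.71 in *arf6-2 arf8-3*, 12.09, 12.08 and 11.41 in *myb21-5 myb24-5*, and 11.33, 10.84 and 11.16 in wild type. The 3 genotypes did not overlap at either stage, with *myb21-5 myb24-5* highest and *arf6-2 arf8-3* lowest. The *arf6-2 arf8-3* difference from wild type was -2.82 at stage 13 (SE 0.55, limma adjusted p = 0.00182) and -1.79 at stage 12 (SE 0.55, adjusted p = 0.0464). *KAT2*, which encodes a potassium channel of guard cells, had 6.87, 6.46 and 5.97 in *arf6-2 arf8-3*, 8.37 and 8.27 in *myb21-5 myb24-5*, and 7.81, 7.68 and 7.02 in wild type at stage 13, and was -1.07 from wild type in *arf6-2 arf8-3* (SE 0.25, limma adjusted p = 0.00652). All *arf6-2 arf8-3* arrays lay below and both *myb21-5 myb24-5* arrays above the wild-type arrays. The fall of *KAT2* was -1.17 in *arf6-2 arf8-3*, -1.03 in *myb21-5 myb24-5* and -1.06 in wild type.

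Members just inside a threshold had nearly the values of probe sets just outside it. Just inside the wild-type threshold were *AT1G54450* (-1.04), *CHX20* (-1.05) and *KAT2* (-1.06), and just outside it *AT1G06990* (-0.996), *AT5G49680* (-0.97) and *TGA9* (-0.93). In *arf6-2 arf8-3* the tubulin gene *TUB1* (-0.72), *AT1G75050* (-0.75) and *AT4G22790* (-0.75) were just inside, and *AGL104* (-0.68), *AT4G31330* (-0.68) and *AT4G23680* (-0.67) just outside. In *myb21-5 myb24-5* *CP1* (-0.71), *AT3G52620* (-0.74) and *TUB1* (-0.75) were just inside, and *AT5G62730* (-0.56), *AT3G28790* (-0.54) and *AT4G27590* (-0.52) just outside. A further 8 probe sets met all falls and were left out only because their wild-type arrays overlapped between the stages. Of the 192 members, 147 were called in none of the 4 comparisons with wild type, against 90.3% of all probe sets.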

How the data were processed

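Total RNA of whole flowers was hybridised to ATH1 arrays, 18 in 6 groups of 3. By their methods, the authors used MAS5 software for scanning and RMA for background correction and normalization, without baseline correction, so that the deposited values are log2 expression values per probe set. RMA already brings the arrays to a shared distribution of probe signals, and it compresses low signals. Quantile normalization and median centring, used below as alternatives, thus test little further. Of 22810 probe sets, 64 controls were left out and no further normalization was applied. Groups followed the sample labels.

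With limma 3.58.1 in R 4.3.3, lmFit and eBayes were run on 17 arrays with 6 group means, two-sided, with Benjamini-Hochberg adjustment over 22746 probe sets. Calls needed at least a 2-fold difference beside an adjusted p under 0.05. The fit was tested on simulated data. These had independent noise for each probe set and a spread common to all groups, so that test did not cover the members' shared shifts. The members and lists were chosen with earlier results of these data known, and the role groups and the DUF family groups were put together after the values were seen. Named members are, among those with 1 gene, the 12 largest average falls, the 6 highest wild-type stage 12 means, up to 5 of each fixed list, the 4 largest differences in each direction per comparison with wild type, the 4 members with the smallest and the 4 with the largest mutant fall relative to wild type, the 3 nearest each threshold on either side, and the targeted genes. A gene with several probe sets is given by that with the highest mean. Some other members are named as examples of their role group. Gene names came from the platform annotation and the RefSeq gene table. A planned grouping by words in that table's descriptions was void, since they covered 11.5% of the named members.

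The main fit did not use the replicate letters, so its p-values are unpaired. Letters were counted as pairing the arrays of a comparison where every pair correlated over 0.1 in deviations from the group means. This held between stage 13 *arf6-2 arf8-3* and wild-type arrays (A 0.55, B 0.23, C 0.37), and between stage 12 *myb21-5 myb24-5* and wild-type arrays (A 0.69, B 0.23, C 0.31). The labels do not say what a letter shares. Alternatives were all 18 arrays, a replicate block, the methods' t-test, no fold limit, only the compared groups, dim probe sets left out, quantile normalization, median centring, and each array left out in turn.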

Additional observations from a re-analysis of the deposited data

Results flagged for a closer look

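For *RXF26*, *KAT2* and the unnamed probe set 248596_at, every *arf6-2 arf8-3* array lay below every wild-type array and every *myb21-5 myb24-5* array above them, at both stages. *RXF26* differed from wild type by -2.82 in *arf6-2 arf8-3* and 0.84 in *myb21-5 myb24-5* at stage 13, and by -1.79 and 0.75 at stage 12. *KAT2* differed by -1.07 and 0.82 at stage 13, and by -0.96 and 0.79 at stage 12. For 248596_at the differences were -0.99 and 0.77 at stage 13, and -0.90 and 0.56 at stage 12. The direct difference of *arf6-2 arf8-3* minus *myb21-5 myb24-5* passed the test for all 3 at both stages, with -3.65 at stage 13 for *RXF26* (limma adjusted p = 0.00112), -1.89 for *KAT2* (adjusted p = 0.000375) and -1.76 for 248596_at (adjusted p = 0.000249). These 3 are also the members that fell more in *arf6-2 arf8-3* and less in *myb21-5 myb24-5* than in wild type. *AT3G48460*, of the GDSL lipase family, had the same order at stage 13, with -0.24 in *arf6-2 arf8-3* and 0.87 in *myb21-5 myb24-5*, and the mutants differed by -1.11 (limma adjusted p = 0.00218). With 3 or fewer arrays a group, such an order rests on few values. The share of all probe sets with this order is not given here, so whether these members are many cannot be said.

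The set-aside array, which was left out when the members were chosen, had a member median of 7.24. This was above the 5.87 to 6.09 of wild-type stage 13 arrays and close to the 7.38 of *arf6-2 arf8-3* stage 13 replicate A. That replicate entered the rule and nearly matched the set-aside array, so the set-aside array is no independent check of the members.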

How the results depend on the processing

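The number of members, 192, stayed within 1.5 times under every alternative run. It was 210 with all 18 arrays, 135 with a fall of -1 or beyond in both mutants, 227 with -0.5, 132 with no overlap of stages asked of the mutants too, 186 after quantile normalization and 180 without dim probe sets, and between 137 and 222 with single arrays left out. Of 151 alternative values, 40 moved by more than 1.5 times, and the cause was not tested.

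In *arf6-2 arf8-3* buds the 4 members called lower became 1 with all 18 arrays, 7 with no fold limit and 2 with only the compared groups fitted, and 1 to 7 with single arrays left out. The 1 called higher became 0 by the methods' t-test, 2 with no fold limit, 0 with only the compared groups, and 0 to 14 with single arrays left out. In *myb21-5 myb24-5* buds the 3 called higher became 0 to 6, and the 0 called lower 0 to 1, with single arrays left out. At stage 13 the 29 called higher in *arf6-2 arf8-3* became 16 to 55, and the 3 called lower 1 to 5, in the same way. In *myb21-5 myb24-5* at stage 13 the 22 called higher became 45 by the methods' t-test, 50 with only the compared groups and 11 to 20 with single arrays left out, and the 0 called lower became 1 and 2 under those first settings. After Benjamini-Hochberg adjustment the methods' t-test called 6 higher in *arf6-2 arf8-3* and 5 in *myb21-5 myb24-5* at stage 13, 0 lower there, and 0 at stage 12.

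With a replicate block, 46 members were called higher in *arf6-2 arf8-3* and 45 in *myb21-5 myb24-5* at stage 13, and the other member counts stayed within 1.5 times. In *arf6-2 arf8-3* buds (A 0.64, B -0.02, C 0.20) the letters did not pair the arrays, and *myb21-5 myb24-5* at stage 13 had only 2 pairs. The alternatives for the lists were chosen after seeing the data. The 6 late pollen genes called lower in wild type became 3 to 6 with single arrays left out, and the 2 tapetum genes 1 to 2, and 1 with all 18 arrays.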
